A study of Solanum lycopersicum with 12 samples.

Results

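The leaf mines cut by larvae of the tomato leafminer *Tuta absoluta* wound the leaf from the first hours of feeding. The genes described here are those whose RNA was higher in infested than in control leaves after 5 h of feeding and close to control after 24 h. They were chosen by their measured values. Reads of a gene were divided by the total of its library and multiplied by 1000000 (CPM), averaged over the 3 libraries of a group, and 0.5 CPM was added to each mean before ratios were taken. A member had a ratio of infested to control leaves of at least 3 at 5 h, every infested library above every control library at 5 h, an infested mean of at least 5 CPM at 5 h, and a ratio of infested to control leaves below 1.5 at 24 h. In all, 26 of 34075 counted genes met these conditions. All 12 libraries entered the choice, so the ratios of the members at 5 h and at 24 h are descriptions and carry no test.

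The leaves came from tomato (*Solanum lycopersicum*) cv. Better Bush, grown hydroponically. On 6 plants, 6 larvae were set on the terminal leaflets of a true leaf, and 6 control plants had a mock deposition. The leaflets were taken after 5 h or 24 h, larvae removed, which gives control 5 h, infested 5 h, control 24 h and infested 24 h leaves with 3 libraries each. The plants of all 4 groups had the same genotype and growth conditions. Whether each library came from plants of its own is not spelled out, so the spread given here is that between these libraries, and the whole leaflet was extracted, so that fewer cells of a type and less RNA per cell cannot be told apart.

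When an insect chews a leaf, broken cells release signals that raise jasmonate, calcium and other messengers within minutes to hours, and a first wave of genes is switched on. Some of these genes, such as those for signalling proteins and for entry enzymes of pathways, return to their starting level early. Genes for proteins that act on the insect gut, such as proteinase inhibitors, keep accumulating RNA while feeding lasts. The level of many leaf genes also follows the day and night cycle and the age of the leaf, so a comparison with control leaves of the same harvest is needed at each time.

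The libraries held 19655669 to 28209033 counts, and 3 counts correspond to 0.106 to 0.153 CPM. Genes that the study lists under photosynthesis, of which 26 of 78 identifiers could be read, were never at 0. Their summed level was 64600 to 72100 CPM in control 5 h, 55700 to 66500 CPM in infested 5 h, 19900 to 24500 CPM in control 24 h and 8680 to 12500 CPM in infested 24 h leaves, so it differed between the harvests in control leaves too. *Solyc08g076930* (SlMYC1), a regulator of type VI glandular trichomes, was at 21.7 to 25.4 CPM in control 5 h, 82.8 to 115 CPM in infested 5 h, 12.5 to 16.6 CPM in control 24 h and 39.6 to 61.2 CPM in infested 24 h leaves. The part of either in the values of the members was not tested. The scaling factors by the trimmed mean of M-values (TMM), which correct for a few abundant genes taking up reads, were 1.04 to 1.246 in infested 24 h libraries and 0.885 to 1.04 in the others. Scaling by TMM in place of library totals moved the log2 ratio of infested to control leaves at 24 h by -0.18 for the median gene, and that of infested 24 h to infested 5 h leaves by -0.30. With TMM scaling, 52 genes met the rule, all 26 members among them.

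Among the 12145 genes with an infested 5 h mean of at least 5 CPM, 436 had a ratio of at least 3 at 5 h and 414 of these also had libraries that did not overlap at 5 h. At 24 h, 229 of the 414 still had a ratio of at least 3, 109 had a ratio from 2 to below 3, 50 had one from 1.5 to below 2, and 26 (6.28%) had one below 1.5. The return to near the control level was therefore the rarer course among the genes raised early. The median ratio over the 414 genes was 5.53 at 5 h and 3.39 at 24 h. Over the 26 members it was 3.67 at 5 h, with a range of 3.1 to 8.4 and 18 members below 4, and 1.27 at 24 h, with a range of 0.711 to 1.49. The members thus lay at the low end of the early response, as the plot of the ratios at both harvests shows.

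**Figure D1:**
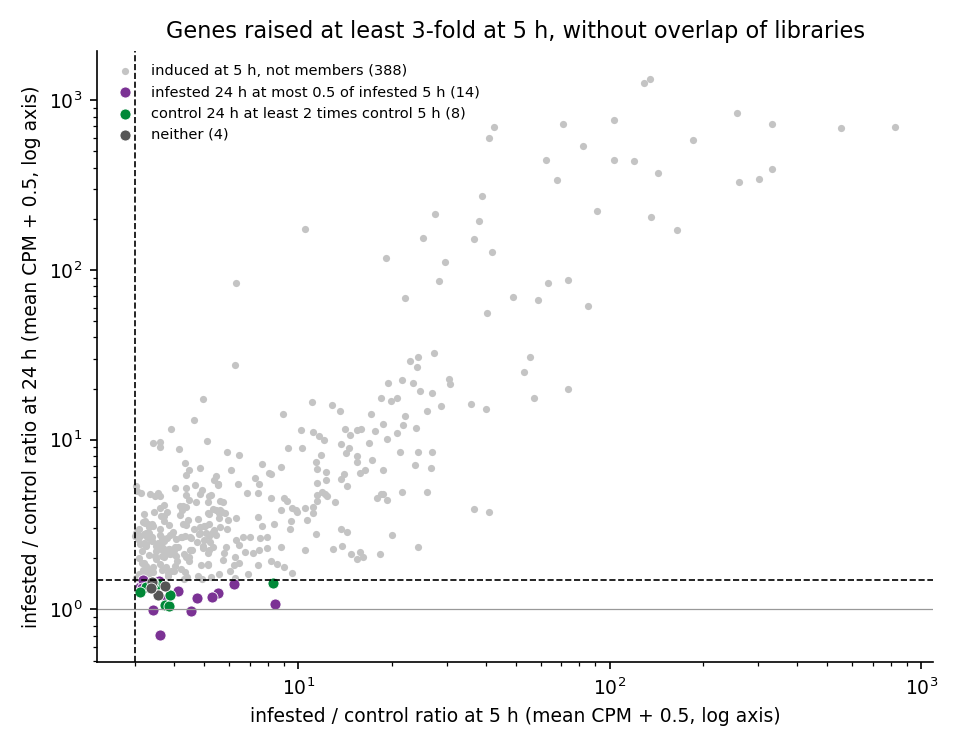
Ratio of infested to control leaves at 5 h (x, log axis) and at 24 h (y, log axis) for the 414 genes that met the conditions at 5 h; dashed lines mark 3 and 1.5. The 26 members (coloured) have ratios of 3.1 to 8.4 at 5 h, while the 388 other genes (grey) reach 826 at 5 h and 1340 at 24 h.

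The thresholds cut through a continuous range. Just inside the ratio of 3 at 5 h lay *Solyc08g016310* (3.1), *Solyc01g008110* (3.11) and *Solyc06g075510* (3.15), and just outside, with the other conditions met, *Solyc05g053400* (2.94), *Solyc11g010810* (2.89) and *Solyc03g114210* (2.71). Just inside the ratio of 1.5 at 24 h lay *Solyc02g086180* (1.49), *Solyc12g099290* (1.47) and *Solyc01g105360* (1.46), and just outside *Solyc12g006470* (1.51), *Solyc12g099400* (1.52) and *Solyc04g016430* (1.52). The ratio at 24 h was above 1 in 23 of the 26 members, and in 20 with TMM scaling. Under TMM scaling *Solyc00g500190*, *Solyc05g008370* and *Solyc03g097230* passed below 1. Over the 12145 genes with an infested 5 h mean of at least 5 CPM the median log2 ratio at 24 h was 0.201. With TMM scaling it was 0.017, and nothing is read from these counts of members.

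The gene with the highest ratio at 5 h, *Solyc00g500190* (8.4), owed its place to a single library. Its level was 30.1 CPM in infested 5 h replicate 3, against 1.06 and 1.03 CPM in the other infested 5 h libraries and 0.718 to 0.984 CPM in control 5 h leaves. Without that library its log2 ratio was 0.21 in place of 3.07, and its log2 change between the infested harvests turned from -2.73 to 0.13. After 24 h it was at 0.863 to 1.31 CPM in control and 0.673 to 1.76 CPM in infested leaves, so it is counted among the members but not read further.

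A ratio can return to control in 2 ways, by a lower level in infested leaves or by a higher level in control leaves, and both were found. The file headers name different mapping inputs for the 2 harvests, so harvest and mapping run cannot be told apart in the changes between harvests given below. In 14 of the 26 members the infested 24 h level was at most 0.5 times the infested 5 h level, as in 5.17% of the 12145 genes. In 8 others the control 24 h level was at least 2 times the control 5 h level, as in 6.34% of the 12145 genes. No member met both conditions and 4 met neither. Meeting both takes a loss of the log2 ratio of at least 2, and the median loss of the members was 1.68. Most members therefore could not meet both, and nothing is read from the absence of such members. At this cut, the name of a transient induction describes the 14 members (13 without *Solyc00g500190*), called the fall set below. The 4 that met neither condition were also lower in infested leaves at 24 h, at 0.515 to 0.669 times the level at 5 h. With TMM scaling, 17 members met the cut of 0.5, so the size of this set depends on cut and scaling. In 7 of the 14 the control mean was also lower at 24 h than at 5 h, so the level there fell between harvests in both treatments. With TMM scaling the control ratios of *Solyc09g089550* and *Solyc01g091320* also passed below 1. Over the 12145 genes the median log2 change between control harvests was 0.093, and -0.028 with TMM scaling, so nothing is read from this count. In the 8 members of the control-rise set the infested level at 24 h was 0.797 to 7.02 times that at 5 h, and in 6 of them it was at or above the level at 5 h (5 with TMM scaling, under which *Solyc08g016310* passed below).

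On the log2 scale the loss of the ratio between 5 h and 24 h is exactly the rise in control leaves plus the fall in infested leaves. Over the 26 members the median loss was 1.68. In the fall set the median fall in infested leaves was 2.02 and the median rise in control leaves was -0.12. In the control-rise set the median rise in control leaves was 2.42 and the median fall in infested leaves was -0.97, meaning that the infested level was higher at 24 h. The rise in control leaves exceeded the fall in infested leaves in 9 of the 26 members, the 8 of the control-rise set and 1 of the 4 remaining members, *Solyc10g079640*. For comparison, among the 388 genes raised at 5 h that were not members, 35.1% had an infested 24 h level of at most 0.5 times that at 5 h and 16% a control 24 h level of at least 2 times that at 5 h, against 53.8% and 30.8% of the members. The rule itself favours both courses, so these shares are descriptions.

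**Figure D2:**
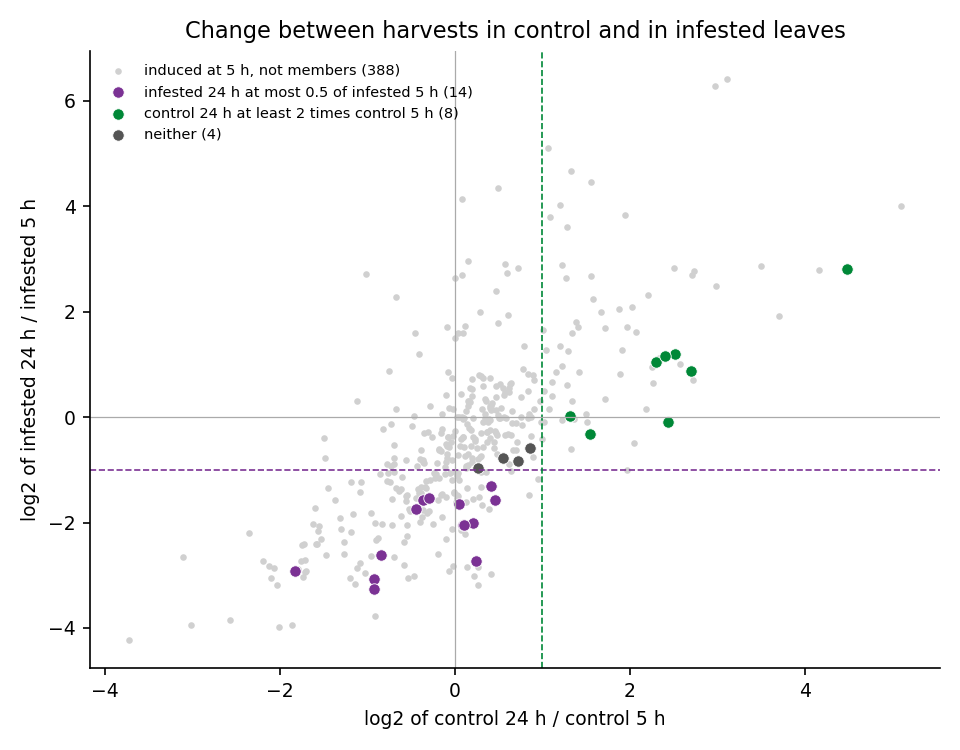
Log2 change from 5 h to 24 h in control leaves (x) and in infested leaves (y) for the 414 genes raised at 5 h; dashed lines mark a level 2 times as high in control leaves and 0.5 times as high in infested leaves. The 14 members of the fall set lie below the horizontal line and the 8 of the control-rise set lie right of the vertical line. No member lies past both, for which the loss of the ratio was too small in most members.

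The edgeR quasi-likelihood test across 18200 genes (Benjamini-Hochberg adjusted p below 0.05) was used to count members called between harvests. Both harvests of each treatment entered the rule, so the counts are read only beside the share of all genes called. Between control harvests, 9 members were called higher at 24 h (13.7% of all genes tested) and 6 lower (14.0%). Between infested harvests, 3 members were called higher at 24 h (17.3% of all genes) and 18 lower (17.4%). The 9 called higher in control leaves were the 8 of the control-rise set and *Solyc10g079640*. The 6 called lower in control leaves all belonged to the fall set. The 18 called lower in infested leaves were the 14 of the fall set and the 4 that met neither condition. In contrasts the rule used, 26 members were called higher in infested leaves at 5 h (6.94% of all genes), 0 higher (11.8%) and 1 lower (12.5%) in infested leaves at 24 h, and 17 had a smaller response at 24 h than at 5 h (1.47%), and nothing is read from these. At an unadjusted p below 0.05, edgeR gave 2 members higher in infested leaves at 24 h, and DESeq2 called 0 after adjustment. The 1 member lower in infested leaves at 24 h was *Solyc02g086650*, and with library totals in place of TMM factors 3 members were called higher and 0 lower. The count of 17 was as low as 3 when control 5 h replicate 2 was left out.

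The members were also compared library by library, on CPM scaled by library totals. At 24 h, infested and control libraries overlapped in 22 of the 26 members, and infested libraries lay above all controls in 4 (31.9% of the 12145 genes) and below them in 0 (13.4%). The 4 were *Solyc12g006050*, *Solyc12g099290*, *Solyc01g105360* and *Solyc01g008110*, and none of them was called higher at 24 h by edgeR with TMM factors. Control 24 h libraries lay above all control 5 h libraries in 13 members (29.6% of the 12145 genes) and below them in 5 (20.7%). Infested 24 h libraries lay above all infested 5 h libraries in 4 members (37.9%) and below them in 17 (14.9%). The median coefficient of variation of the members was 26.2% in infested 24 h leaves and 17.1% to 18% in the other groups, against 17% and 10.7% to 12.9% over the 12145 genes.

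**Figure D3:**
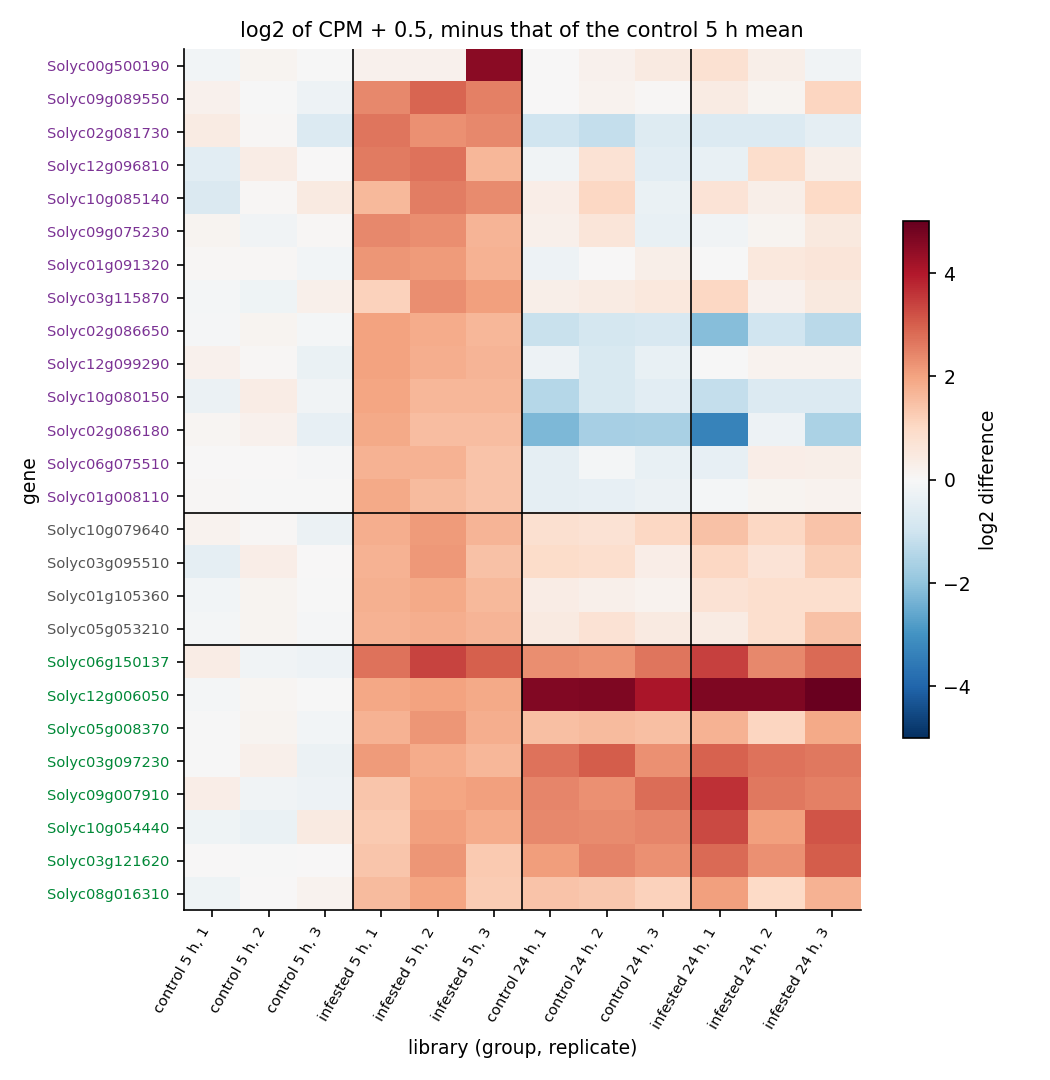
Log2 of CPM plus 0.5 in each of the 12 libraries, minus the log2 of the control 5 h mean plus 0.5, for the 26 members (red higher, blue lower). From the top, the 14 members of the fall set are red in infested 5 h libraries (*Solyc00g500190* in replicate 3 alone) and pale or blue at 24 h. The 4 members with neither change are paler in infested 24 h than in infested 5 h libraries, and pale in control 24 h libraries. The 8 of the control-rise set are red in infested 5 h libraries and in control and infested 24 h libraries.

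In the lists of the study as read here, some of them shortened, 6 of the 26 members have a named product or pathway, and the other 20 are given by identifier alone. Of the annotated members, 4 belong to lipid synthesis and lie in the fall set. Sterols are built from the isoprenoid squalene, stabilise plant membranes and are the starting material of the steroidal glycoalkaloids that make tomato leaves bitter and toxic to many insects. *Solyc02g081730*, listed by the study under steroid metabolism, was at 23.5, 18.8 and 11 CPM in control 5 h leaves and at 116, 88.8 and 95.9 CPM in infested 5 h leaves. At 24 h it was at 8.7, 7.57 and 11.2 CPM in control leaves and at 10.9, 10.8 and 12.9 CPM in infested leaves. Only the infested 5 h libraries stood out, by a ratio of 5.52, and the infested level at 24 h was 8.39 times lower than at 5 h.

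*Solyc10g080150*, the other member under steroid metabolism, followed the same course at a lower level. It was at 3.14, 5.22 and 3.36 CPM in control 5 h, 17, 13.5 and 13.3 CPM in infested 5 h, 1.15, 2.13 and 2.57 CPM in control 24 h and 1.41, 2.23 and 2.21 CPM in infested 24 h leaves. At 24 h both treatments lay below the control 5 h libraries, and their ratio was 0.998.

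*Solyc02g086180* and *Solyc01g091320* are listed under lipid synthesis without a nearer role. The first was at 93.5, 102 and 64.4 CPM in control 5 h and at 324, 252 and 255 CPM in infested 5 h leaves. After 24 h it was at 17.8, 27.2 and 27.5 CPM in control leaves and at 8, 71.7 and 28.9 CPM in infested leaves, so that the infested libraries spread from below to above the controls. It had the largest fall between control harvests of all members, by 3.54 times, and with a ratio of 1.49 it was the member nearest to the limit at 24 h. *Solyc01g091320* was at 42.5, 42.1 and 37.3 CPM in control 5 h and at 190, 182 and 137 CPM in infested 5 h leaves. At 24 h its level in control leaves, 34.1, 41.7 and 50.2 CPM, was close to that at 5 h, and infested leaves were at 39.7, 59.6 and 62.7 CPM. Its infested level was thus 3.12 times lower at 24 h, with a control ratio between harvests of 1.03 (below 1 with TMM scaling).

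The 2 most abundant members in infested 5 h leaves were in the fall set, although the median infested 5 h level was 79.3 CPM in the fall set and 130 CPM in the control-rise set. *Solyc02g086650*, whose product is not named in the sources used here, had the highest infested 5 h level of all members, with 630, 553 and 483 CPM against 149, 171 and 142 CPM in control 5 h leaves. After 24 h it was at 70.9, 83 and 87.9 CPM in control and at 34.5, 77.2 and 59.9 CPM in infested leaves. It had the lowest ratio at 24 h, 0.711, and the largest fall between infested harvests, by 9.64 times. *Solyc01g008110* was at 175, 162 and 162 CPM in control 5 h and at 615, 493 and 449 CPM in infested 5 h leaves. At 24 h, on library totals, its control libraries were at 123, 126 and 136 CPM. Its infested libraries lay above them at 156, 182 and 188 CPM, by a ratio of 1.36. With TMM factors the log2 ratio was 0.265 and was not called (edgeR quasi-likelihood test, adjusted p 0.166). *Solyc06g075510* fell from 106 ± 13.3 to 36.3 ± 9.61 CPM (SD, n = 3) in infested leaves, with controls at 33.4 ± 1.07 CPM at 5 h and 27.2 ± 3.8 CPM at 24 h.

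Of the remaining members of the fall set, *Solyc10g085140* and *Solyc12g099290* were at moderate levels. *Solyc10g085140* was at 14.4, 25.7 and 33.1 CPM in control 5 h and 76.8, 148 and 128 CPM in infested 5 h leaves, and its libraries mixed at 24 h, at 31.1, 50.6 and 19.4 CPM in control and 39.5, 30.2 and 48.6 CPM in infested leaves. *Solyc12g099290* was at 18.6, 16.5 and 12.7 CPM in control 5 h, 65.9, 56.6 and 52.5 CPM in infested 5 h, 13.2, 9.22 and 12.2 CPM in control 24 h and 15.7, 17.9 and 17.8 CPM in infested 24 h leaves. On library totals its infested libraries still lay above the controls at 24 h, by a ratio of 1.47. With TMM factors the log2 ratio was 0.389 and was not called (edgeR quasi-likelihood test, adjusted p 0.115).

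Another 4 members of the fall set had group means below 4 CPM outside infested 5 h leaves. *Solyc09g089550* was at 2.42, 1.97 and 1.61 CPM in control 5 h, 12.6, 18.5 and 14 CPM in infested 5 h, 2.05, 2.33 and 2.09 CPM in control 24 h and 2.81, 2.23 and 4.79 CPM in infested 24 h leaves, with ratios of 6.22 and then 1.42. *Solyc09g075230* was at 2.31 to 2.99 CPM in control 5 h and at 16.7, 15.6 and 9.87 CPM in infested 5 h leaves, and at 24 h its ratio was 0.984. *Solyc12g096810* had the lowest level of all members, with 187, 211 and 66 counts (6.86, 7.48 and 3.36 CPM) in infested 5 h libraries and 9 to 28 counts in control 5 h libraries. *Solyc03g115870* was at 3.41, 8.51 and 6.87 CPM in infested 5 h leaves against 1.02 to 1.64 CPM in control 5 h leaves, and at 1.55 to 3.16 CPM in infested 24 h leaves. For genes at such levels the 0.5 CPM added to each mean lowers the ratio.

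**Figure D4:**
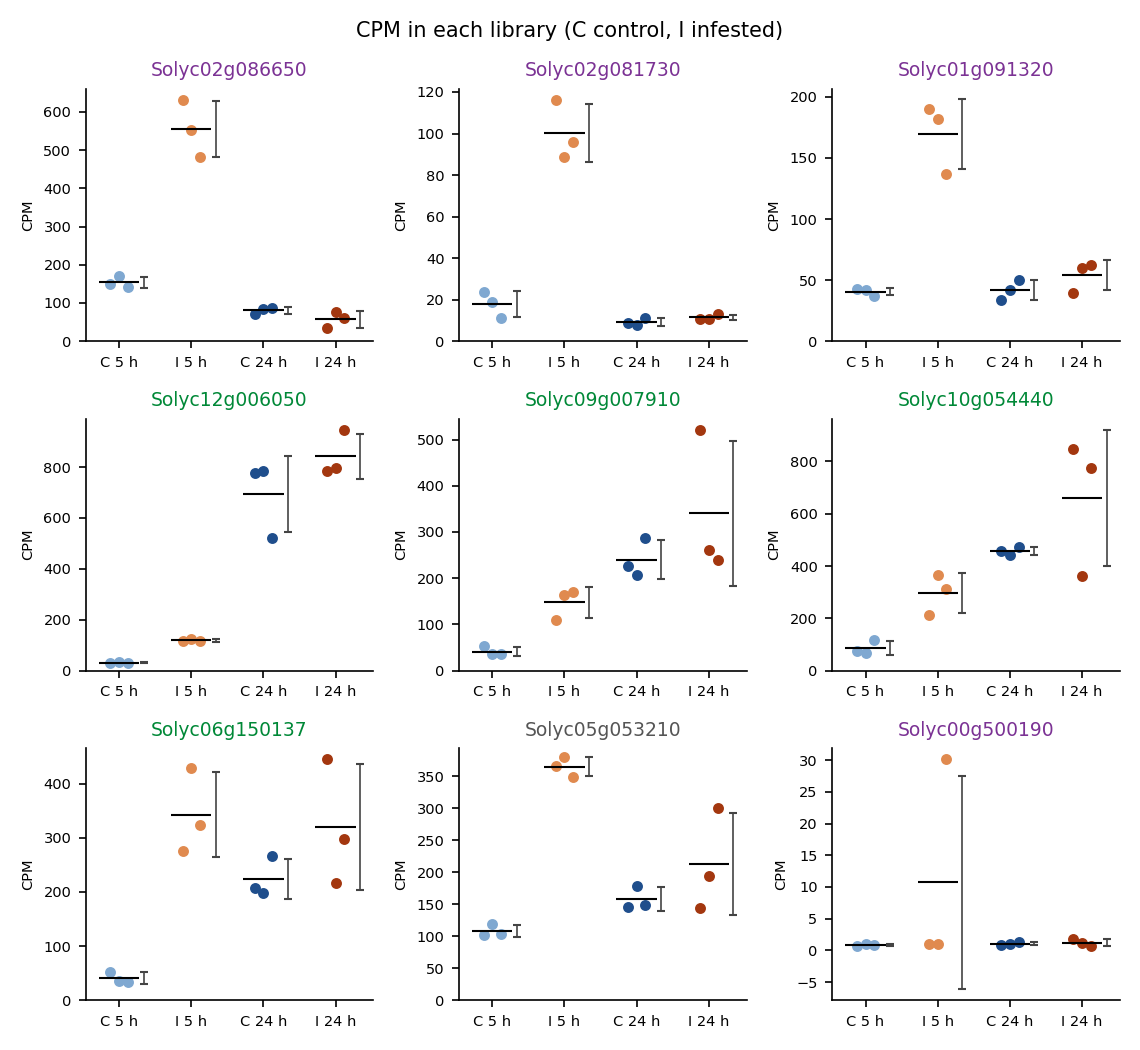
CPM in each library for 9 members (points, 3 per group; horizontal line, mean; bar, SD; C control, I infested), with titles coloured purple for the fall set, green for the control-rise set and grey for neither. In *Solyc02g086650*, *Solyc02g081730* and *Solyc01g091320* infested 5 h leaves stand alone. In *Solyc12g006050*, *Solyc09g007910* and *Solyc10g054440* the means of both 24 h groups lie above that of infested 5 h leaves. The infested libraries of the 2 harvests overlap in *Solyc10g054440*. In *Solyc00g500190* 1 library of 30.1 CPM carries the infested 5 h mean.

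In the control-rise set, 2 members have a role given by the study. *Solyc09g007910* encodes phenylalanine ammonia-lyase SlPAL5, a form of the enzyme that takes phenylalanine into phenylpropanoid synthesis, from which lignin, flavonoids and the phenolic parts of phenolamides are made. It was at 52.6, 36.4 and 35 CPM in control 5 h and at 110, 163 and 171 CPM in infested 5 h leaves. After 24 h it was at 226, 206 and 288 CPM in control and at 521, 260 and 239 CPM in infested leaves. Every 24 h library, control or infested, lay above every infested 5 h library. Its control level was 5.74 times and its infested level 2.29 times as high at 24 h as at 5 h, so the ratio went from 3.55 to 1.42 while the RNA was more abundant.

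*Solyc10g054440* is listed by the study under arginine, polyamine and amine metabolism. Polyamines such as putrescine come from arginine or ornithine, and join phenolic acids to form phenolamides. The gene was at 73.8, 67.9 and 118 CPM in control 5 h and at 214, 364 and 312 CPM in infested 5 h leaves. At 24 h it was at 457, 444 and 473 CPM in control and at 846, 363 and 773 CPM in infested leaves. Control leaves at 24 h were above all infested leaves at 5 h, and 1 infested 24 h library lay below the controls while the others lay well above them. Its log2 ratio at 24 h was 0.53 over all libraries and 0.82 without that library, infested 24 h replicate 2.

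The largest rise in control leaves was that of *Solyc12g006050*, whose product is not named in the sources used here. It was at 28.8, 32.9 and 29.9 CPM in control 5 h and at 118, 126 and 115 CPM in infested 5 h leaves. After 24 h it was at 776, 783 and 522 CPM in control and at 786, 796 and 945 CPM in infested leaves, 22.4 and 7.02 times the levels at 5 h, and the lowest infested library was just above the highest control. The early difference of 3.87 times in infested leaves was therefore small beside the difference between harvests, and it was the most abundant member at 24 h in both treatments.

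*Solyc06g150137* had the highest ratio at 5 h after *Solyc00g500190*, 8.29, with 275, 429 and 324 CPM in infested against 52.9, 36.1 and 33.9 CPM in control leaves. At 24 h infested leaves were at much the same level, 445, 216 and 297 CPM, and control leaves had come up to 208, 198 and 266 CPM. The control level was 5.42 times and the infested level 0.932 times that at 5 h, so the ratio of this gene returned to 1.43 with hardly any change in infested leaves.

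The other members of the control-rise set were of the same kind. *Solyc03g097230* was at 4.97 to 7.61 CPM in control 5 h, 29, 23.6 and 21 CPM in infested 5 h, 43.3, 53.6 and 32.7 CPM in control 24 h and 52.1, 43.8 and 41.2 CPM in infested 24 h leaves, with a ratio at 24 h of 1.06. *Solyc05g008370* was at 35.3 ± 3.01 CPM in control 5 h, 137 ± 24.4 CPM in infested 5 h, 104 ± 2.6 CPM in control 24 h and 109 ± 30.6 CPM in infested 24 h leaves (SD, n = 3). *Solyc03g121620* was at 2.5 to 2.61 CPM in control 5 h, 7.02 to 13.6 CPM in infested 5 h, 12.7 to 16.7 CPM in control 24 h and 14.6 to 24.4 CPM in infested 24 h leaves. *Solyc08g016310* was at 33.8 to 44.1, 95.4 to 154, 88 to 106 and 79 to 163 CPM in the same order. In 5 members, *Solyc12g006050*, *Solyc03g097230*, *Solyc09g007910*, *Solyc10g054440* and *Solyc03g121620*, the control 24 h mean was above the infested 5 h mean.

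The 4 members that met neither condition were all called lower between infested harvests, and between control harvests only *Solyc10g079640* was called higher. *Solyc05g053210*, the third most abundant member in infested 5 h leaves, was at 101, 119 and 104 CPM in control 5 h and at 366, 379 and 349 CPM in infested 5 h leaves. At 24 h it was at 146, 179 and 149 CPM in control and at 144, 194 and 300 CPM in infested leaves, so the control level was 1.46 times and the infested level 0.583 times that at 5 h. *Solyc10g079640*, *Solyc03g095510* and *Solyc01g105360* had infested 5 h means of 47.2, 36.7 and 18.9 CPM, control ratios between harvests of 1.81, 1.65 and 1.2, and infested ratios between harvests of 0.669, 0.56 and 0.515.

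Across the 12 libraries, members of the fall set had a median Pearson correlation of 0.85 with each other and members of the control-rise set one of 0.89, on log2 CPM plus 0.5. Between the sets the median was 0.082. These values are descriptions over libraries that share the choice of the members and their groups. The libraries differed in which was highest: of the infested 5 h libraries, replicate 2 was the highest in 14 members, replicate 1 in 10 and replicate 3 in 2. Of the infested 24 h libraries, replicate 1 was the lowest in 12 members, replicate 2 in 11 and replicate 3 in 3.

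The pathways of the annotated members were followed in gene lists of the study, which had been chosen on these same libraries and so are no independent evidence of a direction. Of the 9 genes under steroid metabolism, 2 are members. All 9 were called higher in infested leaves at 5 h (6.94% of all genes) and 4 of the 9 at 24 h (11.8%). Between infested harvests all 9 were called lower at 24 h (17.4% of all genes). Between control harvests 4 of the 9 were called lower at 24 h (14.0% of all genes) and 1 higher, and the median control ratio between harvests was 0.724. The 7 that are not members had 5 h ratios of 1.65 to 17.9, and 24 h ratios of 0.891 to 4.56. *Solyc10g086500* had the highest ratios of the list, 17.9 at 5 h and 4.56 at 24 h, and its infested level went from 91.4 to 5.29 CPM. *Solyc06g074090* went from 193 to 23.6 CPM in infested leaves and kept a ratio of 1.64 at 24 h, just above the limit of the rule. Of the others, *Solyc02g086770* and *Solyc04g077440* also had ratios below 1.5 at 24 h (0.891 and 1.46), but their ratios at 5 h, 2.31 and 2.61, were below 3.

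Of the 6 genes under polyamine metabolism, *Solyc10g054440* is the only member, and only with infested 24 h replicate 2 included. The other 5 had 5 h ratios of 4.67 to 26.8, and 24 h ratios of 3.1 to 8.5, and all 6 were called higher in infested leaves at 5 h (6.94% of all genes) and 5 at 24 h (11.8%). Their control levels at 24 h were 0.938 to 1.87 times those at 5 h, against 5.27 times for the member. Of the 5 genes under arginine metabolism it is again the only member, and the other 4 had 5 h ratios of 1.41 to 5, and 24 h ratios of 1.47 to 3.1.

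Of the 10 counted genes annotated as phenylalanine ammonia-lyase, SlPAL5 is the only member. A smaller response of SlPAL5 at 24 h was not called by the edgeR quasi-likelihood test (adjusted p 0.0733). The 7 that passed the filter on low counts were all called higher at 24 h between control harvests (13.7% of all genes). Of these, 6 were called higher in infested leaves at 5 h (6.94% of all genes) and 4 at 24 h (11.8%). *Solyc10g086180* had the largest ratio, 13.8 at 5 h and 2.36 at 24 h, with 77, 1070, 319 and 755 CPM in control 5 h, infested 5 h, control 24 h and infested 24 h leaves. The neighbours of SlPAL5 in the identifier order, *Solyc09g007900* and *Solyc09g007920*, had 5 h ratios of 2.46 and 2.45, and 24 h ratios of 2.22 and 1.99. They are copies of the same enzyme gene, and the handling of reads that map to more than 1 copy was not stated, so the split of counts among them is uncertain.

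**Figure D5:**
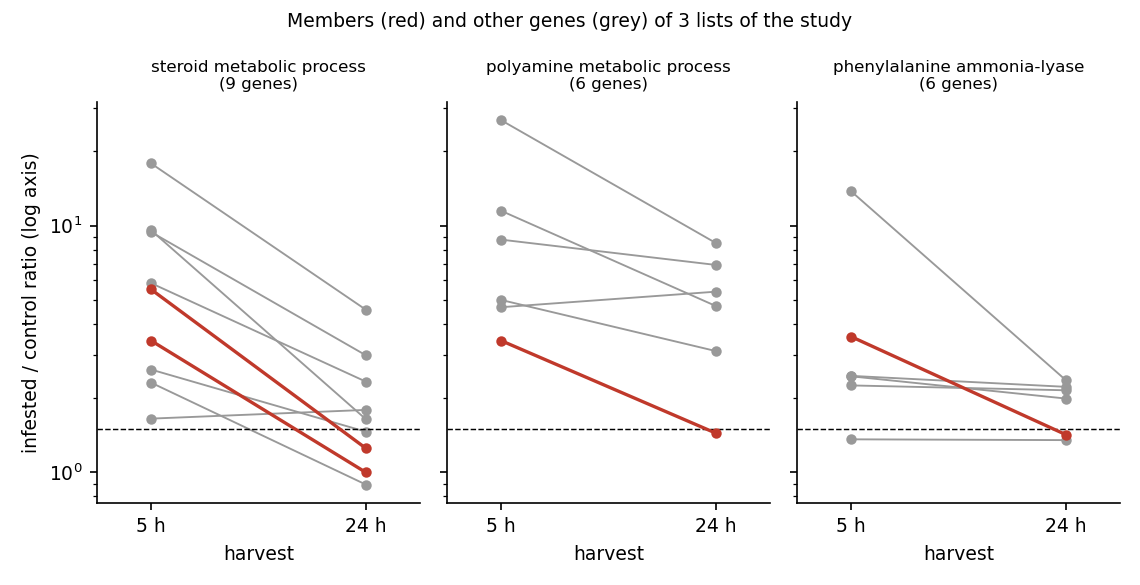
Ratio of infested to control leaves (y, log axis) at 5 h and 24 h for genes of 3 lists of the study whose mean reached 5 CPM in at least 1 group; red lines are members, grey lines other genes, and the dashed line marks 1.5. The 2 members under steroid metabolism run beside other sterol genes. The 5 other polyamine genes stay at 3.1 to 8.5 at 24 h, and the member ends at 1.44 over all libraries.

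Other lists held few members or none. Under aromatic amino acid metabolism 1 of 20 genes was a member, under L-phenylalanine metabolism 1 of 9, under amine metabolism 1 of 11, and in the phenylpropanoid list of the study 1 of 54 counted, SlPAL5 or *Solyc10g054440* in each case. Of the identifiers that could be read under lipid metabolism 3 of 24 were members, and under lipid biosynthesis 4 of 26. No member was found among 11 genes of isoprenoid synthesis, 17 genes of the polyamine and monoamine list, 8 named terpenoid genes, 4 lipases, 3 lipid-modifying enzymes, 5 ethylene signalling genes or 4 MAP kinases. Members were only 26 of the 34075 counted genes, so nothing is read from their absence in these lists. The ratios of the 11 genes under response to wounding took the opposite course to those of the members. They were 6.34 to 331 at 5 h and 83.8 to 836 at 24 h. Of the 11, 10 were called higher in infested 24 h than in infested 5 h leaves (17.3% of all genes).

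The members did not lie side by side. By their identifiers they fell on 10 chromosome numbers, and among the 52 genes next to them in the identifier order none was a member. Members were rare among all genes, so nothing is read from their absence there. Of the 52 genes, 1 met the conditions at 5 h, against 1.21% of all genes, and no grouping or spacing is read from it. That gene, *Solyc09g089540*, belongs to the wounding list and stands beside *Solyc09g089550*. It was at 0.387 CPM in control 5 h, 293 CPM in infested 5 h, 2.1 CPM in control 24 h and 1880 CPM in infested 24 h leaves, whereas *Solyc09g089550* went from 15.1 CPM in infested 5 h to 3.28 CPM in infested 24 h leaves. Neighbouring genes thus had opposite changes between the infested harvests.

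Because all libraries entered the rule, the genes were also chosen without 1 library at a time and read in the library left out. Without infested 5 h replicate 1, 2 or 3 the rule chose 27, 27 and 30 genes, and the left-out library gave a median ratio to the control mean of 3.38, 3.92 and 3.19, with 19, 21 and 19 genes at 3 or more. Without infested 24 h replicate 1, 2 or 3 the rule chose 45, 30 and 30 genes, and the left-out library gave a median ratio of 1.99, 1.46 and 1.47, with 14, 15 and 17 genes below 1.5. Without a control 24 h library it chose 28 or 29 genes, of which 17 to 20 kept a ratio below 1.5 with the left-out control. In each reading the other libraries of the comparison had entered the choice, so these values are descriptions and not independent of the rule.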

How the data were processed

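RNA of leaflets was sequenced on an Illumina HiSeq instrument, and the authors trimmed reads with Trimmomatic, mapped them with BWA and counted them per gene with featureCounts 1.6.4, per the labels and the study's methods; the deposited values are raw counts for 34075 genes in 12 libraries. The sources used here do not give strand or multi-mapping settings. The file headers name different mapping inputs for 5 h and 24 h libraries, so harvest and mapping run cannot be told apart. Identifiers were taken as deposited, without version suffixes; 0 of them matched the RefSeq gene table used here, so names and roles come from the study alone and no sequence is shown.

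The members and gene lists were chosen with earlier results of these data known. CPM, group means plus 0.5 CPM and ratios were computed as the rule states. Counts were fitted with edgeR 4.0.16 (R 4.3.3; TMM, more than 1 CPM in at least 3 libraries, 4 group means, quasi-likelihood test, Benjamini-Hochberg adjustment over 18200 genes); all 26 members passed this filter. DESeq2 1.42.0, other scalings, filters and thresholds, a replicate block and leaving out each library were tried. The fit was tested on simulated data. Named genes were the members with the 10 highest ratios at 5 h, the 5 highest levels, the 5 lowest ratios at 24 h, the 5 largest changes in each direction between control harvests and the 5 largest falls between infested harvests, those annotated by the study, and those next to a threshold; the other members are given with them so that all are accounted for.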

Additional observations from a re-analysis of the deposited data

Results flagged for a closer look

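In 17 of the 26 members the response to feeding differed between 5 h and 24 h when edgeR tested that difference (quasi-likelihood, adjusted p below 0.05 over all genes), against 1.47% of all genes tested with a smaller response at 24 h. All 17 had the smaller response at 24 h. The rule that chose the members used both responses, so this count is a consequence of the choice and gives no support to it. Groups of 3 libraries were too small for a search for outlying libraries.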

How the results depend on the processing

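The count of 26 members depended on scaling and thresholds. It was 52 with TMM scaling, 51 with DESeq2 size factors, 82 and 8 with a ratio at 5 h of at least 2 and at least 4, 12 with a stricter limit at 24 h, 76 with a limit of 2 at 24 h, and 41 with no minimum level. It lay between 23 and 31 with the other settings tried, and leaving out a library gave 27 to 45, the 45 without infested 24 h replicate 1, when 20 of the 26 were kept. The median log2 change between infested harvests, -1.42, was -1.71 with TMM scaling, -1.50 and -1.34 with 0.1 and 1 CPM added, and -1.45 to -1.13 with a library left out. That between control harvests, 0.34, was 0.23 with TMM scaling. The 8 members with a control level at least 2 times as high at 24 h were 8 under every setting tried, and the 14 of the fall set were 17 with TMM scaling. Calls at 24 h were 3 with library totals and 0 to 1 with a library left out. Calls of a difference between the responses, 17, were 3 to 20 with a library left out: 3 and 4 without control 5 h replicate 2 or 3, 6 and 9 without infested 5 h replicate 2 or 3, and 8 and 10 without control 24 h replicate 1 or 3. The cause was not tested. Of 936 recomputed log2 ratios of single members, 925 moved by less than the spread between replicates, 10 moved further and 1 reversed, the change of *Solyc00g500190* between infested harvests, which was -2.73 over all libraries and -3.245 to 0.13 with a library left out (0.13 without infested 5 h replicate 3).

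With the replicate number as a block, 15 members were called between control harvests (25.4% of all genes), 19 between infested harvests (32.3%), 25 at 5 h (11%), 1 at 24 h (21.9%) and 15 for the difference between responses (1.19%). The correlations of same-numbered libraries ranged from -0.266 to 0.343, and those of differently numbered libraries from -0.349 to 0.326. With 3 libraries per group, whether libraries of the same number belong together cannot be decided from these values.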
